A study of Hordeum vulgare with 12 samples.

Results

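Homeobox-leucine zipper (HD-Zip) proteins and NAC proteins are 2 families of plant transcription factors, and 3 of their genes were followed in barley leaf under drought. The genes were chosen by identifier from the deposited table of 30157 genes, as 3 of 30157. One is described there as similar to the rice homeobox-leucine zipper gene HOX22 and was chosen for a higher level in drought. The other 2 are described as NAC transcription factors and were chosen for a lower level in drought. Because drought differences in these libraries chose the genes, their drought values are given below as a description, with no test.

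Leaf RNA of Hordeum vulgare accessions BCS8 and BCS24 was sequenced in control (labelled ck) and drought conditions, with 3 libraries in each of 4 groups: BCS8 control, BCS8 drought, BCS24 control and BCS24 drought. Nothing but accession and treatment separates the groups in the labels, and no transgene or further agent is named. The drought regime, the age of the plants and whether replicates are separate plants are not given, so p-values measure only the spread between these libraries, which may be technical. RNA was selected for poly(A) tails and read as strand-marked pairs.

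HD-Zip proteins pair a DNA-binding homeodomain with a leucine zipper through which they dimerise, and class I members are known as regulators of growth under water deficit. Rice HOX22 belongs to that class and is known to be induced by drought and by abscisic acid (ABA), the hormone that closes stomata and switches on drought genes. NAC proteins share an N-terminal DNA-binding domain, and in Arabidopsis, wheat and rice several of them promote or delay leaf senescence, the ordered breakdown of chlorophyll and export of nitrogen from the ageing leaf. Others act in the drought response or in the formation of xylem.

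The HOX22-like gene, HORVU2Hr1G092710, lies on chromosome 2H at 654964490-654965934 on the plus strand. The deposited annotation gives it the terms response to water deprivation, response to abscisic acid, abscisic acid signalling and positive regulation of transcription. The first NAC gene, HORVU4Hr1G051360, lies on chromosome 4H at 421671811-421673949 on the minus strand and is annotated with positive regulation of leaf senescence and of chlorophyll catabolism. The second NAC gene, HORVU7Hr1G055080, lies on chromosome 7H at 223284155-223288330 on the plus strand. Its terms include leaf senescence, response to salt stress, response to abscisic acid, xylem development and negative regulation of transcription. These positions were copied from the deposited table, and the genome build is not given in the sources used here.

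The libraries held 49553836 to 61212440 counts. Of the 30157 genes, 17342 reached 1 FPKM (a level scaled by gene length and library size) in 3 or more libraries and were tested, and all 3 chosen genes were among them. Leaf identity was checked by description. All 8 Rubisco small subunit genes reached 1 FPKM in every library, with summed levels of 7547 to 16371 FPKM. Of 31 chlorophyll a-b binding protein genes 23 did so, and the 31 summed to 17968 to 56475 FPKM. Of 84 genes described with photosystem I or II only 24 did so, and the 84 summed to 2755 to 4244 FPKM. No gene is described as hordein, casparian strip protein or nicotianamine synthase, so grain and root tissue could not be checked in this way. Counts in rRNA genes differed between the groups, at 0.520 to 0.997% of the library in BCS8 control, 0.918 to 2.22% in BCS8 drought, 0.531 to 2.07% in BCS24 control and 0.202 to 0.658% in BCS24 drought.

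The HOX22-like gene was higher in drought than in control in both accessions, and higher in BCS8 than in BCS24 in both treatments. In BCS8 control its level was 3.62, 6.58 and 1.41 FPKM in replicates 1, 2 and 3, and in BCS8 drought it was 35.1, 20.7 and 21.7 FPKM. In BCS24 control it was 1.07, 2.41 and 1.99 FPKM, and in BCS24 drought 6.67, 10.9 and 5.71 FPKM. Every drought library stood above every control library of its accession, and the BCS8 drought libraries stood above all the others. Group means were 25.8 ± 8.03 FPKM (SD, n = 3) in BCS8 drought, 7.78 ± 2.79 in BCS24 drought, 3.87 ± 2.60 in BCS8 control and 1.83 ± 0.687 in BCS24 control. Of neighbours in that order, only BCS8 drought and BCS24 drought did not overlap, because BCS8 control replicate 2 reached the range of the BCS24 drought libraries and the 2 control groups overlapped. Drought libraries stood above all control libraries in both accessions for 503 of 17342 tested genes, 2.9%, and as this contrast chose the gene nothing is read from its place among them.

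In edgeR's fit to the counts, the drought difference of the HOX22-like gene was 2.79 ± 0.52 (SE, log2) in BCS8, a 6.93-fold difference. In BCS24 it was 2.21 ± 0.51, a 4.63-fold difference. The BCS24 value minus the BCS8 value was -0.58 ± 0.69. Leaving out 1 library in turn it ranged from -1.20 ± 0.63 without BCS8 control replicate 2 to -0.19 ± 0.56 without BCS8 control replicate 3, and was -0.95 ± 0.56 with limma on log2(FPKM + 1). With the rRNA share of each library added to the fit, the drought differences were 2.28 in BCS8 and 2.87 in BCS24, and the difference between them turned to 0.59.

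The accession comparison, averaged over the treatments, did not choose the genes and could be tested. Across all tested genes 7029 passed at an adjusted p under 0.05, which is 40.5% (20.2% higher and 20.4% lower in BCS24), so a call here is common. The HOX22-like gene was lower in BCS24 by 2.59-fold, with a log2 difference of -1.38 ± 0.35 (edgeR quasi-likelihood test, adjusted p = 0.0113). It stayed past the threshold in 20 of 20 alternatives, with adjusted p of 0.000306 to 0.0317. By treatment the BCS24 minus BCS8 difference was -1.08 ± 0.50 in control and -1.67 ± 0.50 under drought.

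**Figure D1:**
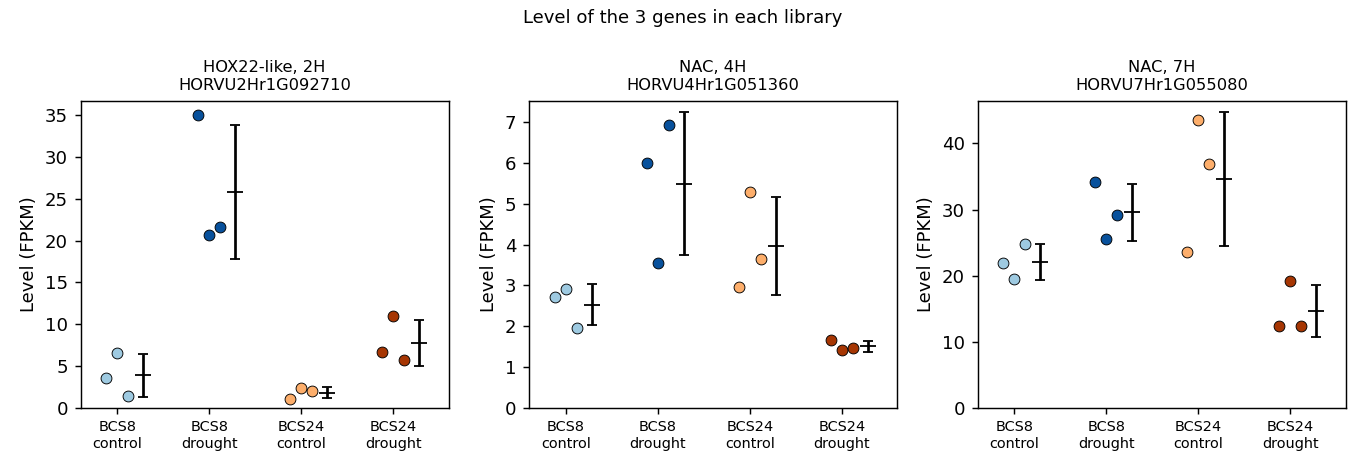
Level of the HOX22-like gene and the 2 NAC genes in FPKM (y axis) in each of the 12 libraries (points, replicates 1 to 3 from left to right), by accession and treatment (x axis), with the mean and SD of each group of 3 as a bar. The HOX22-like gene was highest in BCS8 drought, at 20.7 to 35.1 FPKM, while both NAC genes were higher in drought than in control in BCS8 and lower in BCS24.

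The lower level in drought for which the 2 NAC genes were chosen was found in BCS24 only. Both were lower under drought in BCS24, and both were higher under drought in BCS8. The NAC gene on 4H, of the senescence-promoting annotation, measured 2.72, 2.92 and 1.96 FPKM in BCS8 control and 6.003, 3.56 and 6.93 FPKM in BCS8 drought. In BCS24 it measured 2.97, 5.30 and 3.65 FPKM in control and 1.66, 1.41 and 1.46 FPKM in drought. No drought library overlapped the control range of its accession, in opposite directions. The BCS24 drought libraries were the lowest of the 12 and lay close together.

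The group means of this gene ran from 5.50 ± 1.74 FPKM (SD, n = 3) in BCS8 drought and 3.97 ± 1.20 in BCS24 control to 2.53 ± 0.506 in BCS8 control and 1.51 ± 0.135 in BCS24 drought. The first 2 of these groups overlapped. The other neighbours did not, although the lowest BCS24 control library, at 2.97 FPKM, was just above the highest BCS8 control library, at 2.92 FPKM. The drought difference was 1.17 ± 0.29 (SE, log2) in BCS8, 2.25-fold higher, and -1.26 ± 0.29 in BCS24, 2.40-fold lower.

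The NAC gene on 7H, annotated with leaf senescence and xylem development, had the higher level of the 2 NAC genes per unit length in every library. Its level was 22.0, 19.5 and 24.8 FPKM in BCS8 control and 34.1, 25.5 and 29.2 FPKM in BCS8 drought. In BCS24 it was 23.6, 43.5 and 36.9 FPKM in control and 12.4, 19.1 and 12.4 FPKM in drought. The groups did not overlap in either accession, but the gap in BCS8 was narrow: in CPM (counts scaled by library size only) the highest control library was at 114.7 and the lowest drought library at 115.1. Group means were 34.7 ± 10.1 FPKM (SD, n = 3) in BCS24 control, 29.6 ± 4.31 in BCS8 drought, 22.1 ± 2.68 in BCS8 control and 14.7 ± 3.88 in BCS24 drought. BCS24 control overlapped both groups of BCS8, and BCS8 control overlapped BCS24 drought in CPM, at 86.4 against 92.4, but not in FPKM.

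For the 7H NAC gene the drought difference was 0.47 ± 0.24 (SE, log2) in BCS8, 1.38-fold higher, and -1.12 ± 0.24 in BCS24, 2.17-fold lower. The BCS24 minus BCS8 difference of the drought values was -2.43 ± 0.41 for the 4H gene and -1.58 ± 0.34 for the 7H gene. These differences share the groups that chose the genes and were not tested. Among all 17342 tested genes, 9.66% had every drought library above every control library in BCS8 and 13.4% had it below in BCS24. Those with both arrangements numbered 86, which is 0.496%, and both NAC genes were among them. These contrasts chose the NAC genes, so nothing is read from their place there. Ranked by the size of the difference the 4H gene stood 18th and the 7H gene 38th of the 86. In leaf RNA, fewer cells of a type that expresses a gene and less of its RNA per cell cannot be told apart.

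The rRNA share of the libraries moved in the same direction as both NAC genes in each accession, from 0.770 to 1.65% on average in BCS8 and from 1.35 to 0.486% in BCS24, control to drought. Of 235 tested genes typed as rRNA, 10 were among the 86, which is 4.26%, against 2 of 644 other transcription factor genes by ontology, 0.311%. The correlation of level with rRNA share was 0.664 over the 12 libraries for the 4H gene, 0.410 in BCS8 and 0.859 in BCS24. For the 7H gene it was 0.722, 0.372 and 0.911. With rRNA share added to the fit, the drought values of the 4H gene were 1.13 in BCS8 and -1.21 in BCS24. Without it they were 1.17 and -1.26. As rRNA share differed between the groups, it and drought cannot be told apart here, and its part was not tested. For the 7H gene they were 0.24 and -0.86, and the difference between accessions was -1.11.

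**Figure D2:**
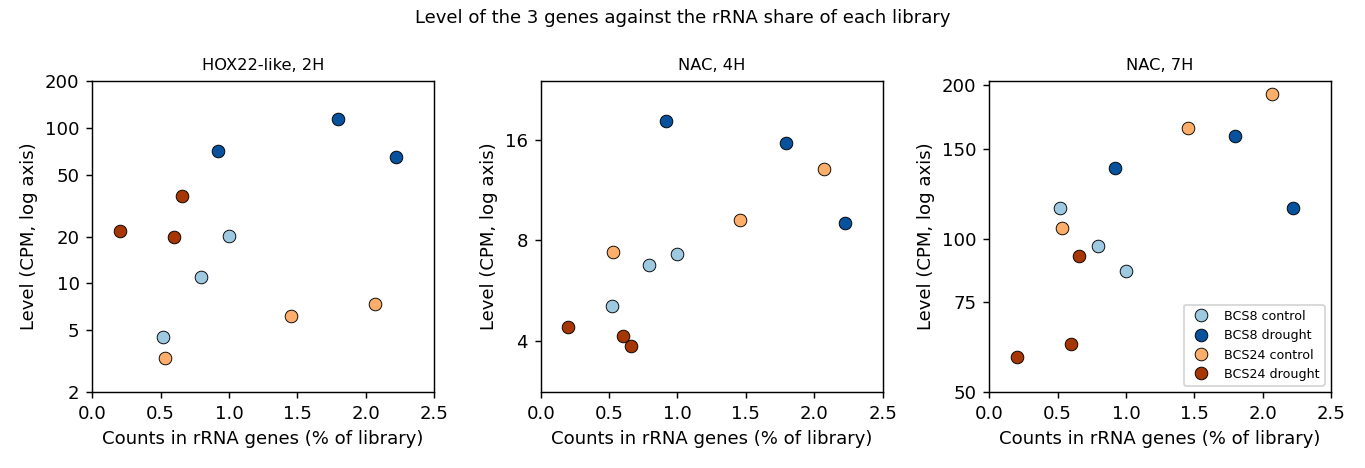
Level in CPM (y axis, log scale) of each of the 3 genes against the share of counts in rRNA genes (x axis, percent of the library), 1 point for each of the 12 libraries, coloured by group. The BCS24 drought libraries, at 0.202 to 0.658% rRNA, had the lowest levels of the 4H NAC gene, while the HOX22-like gene was higher in drought both in BCS8, where rRNA shares were higher in drought, and in BCS24, where they were lower.

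Between accessions, averaged over treatments, the 4H NAC gene was lower in BCS24 by 0.58 ± 0.20 on the log2 scale, 1.49-fold (edgeR, adjusted p = 0.0405). That call was past the threshold in 7 of 20 alternatives, with adjusted p of 0.0121 to 0.0909. The 7H NAC gene did not pass, at -0.16 ± 0.17 (edgeR, adjusted p = 0.485), nor in any of its 20 alternatives. The averages hide opposite signs by treatment. In control both NAC genes were higher in BCS24, by 0.64 ± 0.28 on 4H and 0.63 ± 0.24 on 7H, and under drought the BCS24 minus BCS8 values were -1.79 ± 0.29 and -0.95 ± 0.24.

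The other HD-Zip, homeobox and NAC genes were taken from the description column, which is filled for 29.2% of tested genes, so these lists are partial. Of 6 described NAC genes 4 were tested. The 2 that were not chosen were not past the threshold in either drought contrast, where 1.53% of all tested genes passed in BCS8 and 2.65% in BCS24 (higher 0.998% and 1.4%, lower 0.536% and 1.25%). Their fitted values had the signs of the chosen pair in each accession. How many of all tested genes share these signs was not counted, so no family pattern is read from them. HORVU4Hr1G017430, described as a NAC transcription factor, had 0.37 ± 0.18 in BCS8 and -0.31 ± 0.18 in BCS24 (edgeR, adjusted p = 0.346 and 0.376).

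NAC transcription factor 47, HORVU3Hr1G014140, projected from an Arabidopsis gene, had the largest fitted differences of the 4, with the largest errors. In BCS8 it measured 2.00, 0.821 and 0.585 FPKM in control and 14.9, 4.85 and 5.10 FPKM in drought. In BCS24 it measured 0.272, 2.37 and 1.15 FPKM in control and 0.248, 0.548 and 0 FPKM in drought. The BCS8 groups did not overlap, while the lowest BCS24 control library lay inside the range of the drought libraries. Its drought values were 2.92 ± 1.10 in BCS8 (edgeR, adjusted p = 0.225) and -2.13 ± 1.11 in BCS24 (adjusted p = 0.309). Averaged over treatments it was lower in BCS24, by 2.37 ± 0.77 (edgeR, adjusted p = 0.0324), with BCS24 minus BCS8 values of 0.16 ± 1.04 in control and -4.90 ± 1.22 under drought. That call was lost without BCS8 control 1, BCS8 drought 1, BCS24 control 1 or 3, or BCS24 drought 1, with adjusted p up to 0.0743. For HORVU4Hr1G017430 the accession values were 0.10 ± 0.18 in control and -0.58 ± 0.18 under drought. The 2 untested NAC genes, described as NAC domain containing proteins 38 and 57, had group means of at most 0.794 and 0.0201 FPKM.

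Of 5 described HD-Zip genes 2 were tested, and of 6 further genes listed by homeobox or homeodomain words 1. HORVU3Hr1G026990, an HD-Zip gene with a lipid-binding START domain, had drought values of 0.05 ± 0.10 and 0.03 ± 0.10 in BCS8 and BCS24. HORVU7Hr1G077650, described as a homeodomain (PHD) regulator promoting flowering, is listed by that word only, which does not show that it holds a homeobox. Its drought values were 0.02 ± 0.15 and 0.08 ± 0.15. Neither gene passed in a drought contrast or between accessions.

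**Figure D3:**
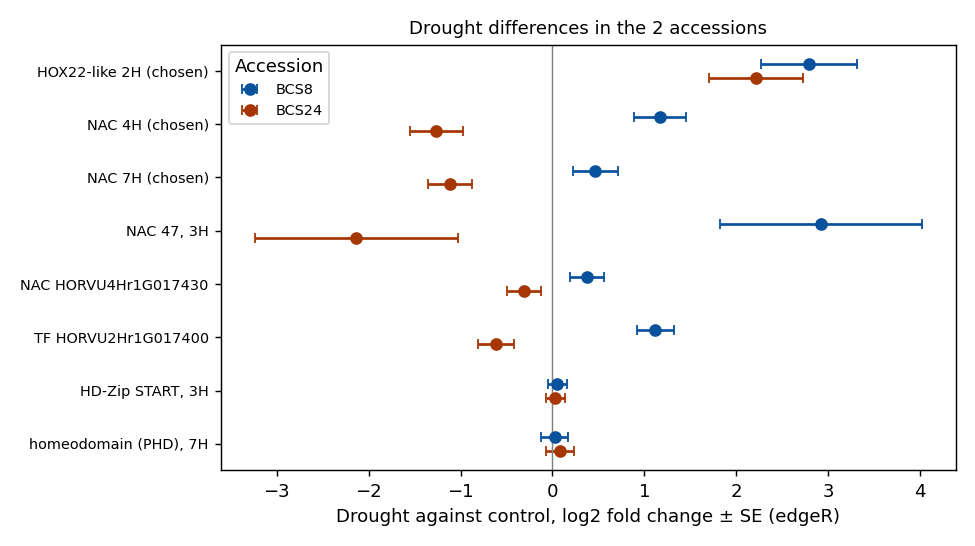
Drought minus control difference (x axis, log2 fold change from edgeR, bars are SE) in BCS8 and BCS24. Shown are the 3 chosen genes, the other 2 tested NAC genes, the transcription factor gene HORVU2Hr1G017400, the other tested HD-Zip gene and HORVU7Hr1G077650. The HOX22-like gene lay right of 0 in both accessions. All 4 NAC genes, 2 of them chosen for drought values and 2 not past the threshold, lay right of 0 in BCS8 and left of it in BCS24. How many of all tested genes share these signs was not counted, so no family pattern is read from them. The last 2 genes lay at 0.02 to 0.08.

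The other HD-Zip gene with a drought difference was HORVU6Hr1G061390, a rice-projected HD-ZIP I transcription activator on chromosome 6H at 411179862-411181360 on the minus strand, which was named here after its values were seen. It carries the water deprivation and abscisic acid terms of the HOX22-like gene. It reached 1 FPKM in only 2 libraries and so fell outside the tested genes. Its counts were 0, 3 and 0 in BCS8 control and 601, 88 and 1145 in BCS8 drought. In BCS24 they were 0, 0 and 0 in control and 7, 15 and 4 in drought. Every drought library exceeded its controls, and the 3 BCS8 drought libraries differed among themselves by more than those of the HOX22-like gene.

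Summed over the libraries and scaled by their summed effective totals, the 1834 counts of that 6H gene in BCS8 drought stood against 3 in control at a ratio of 647, with a 95% exact counting interval of 221 to 3141, which covers counting error only. In BCS24 it was at least 3.04-fold higher in drought by mean CPM, with the control set to the floor of 3 counts in each library. The control was not raised to that floor in BCS8, so these ratios are unlike measures and are not compared. Under drought it measured 11.5, 1.73 and 19.5 CPM in BCS8 and 0.132, 0.290 and 0.0724 CPM in BCS24, without overlap. As the gene was picked for these values, no test is given.

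**Figure D4:**
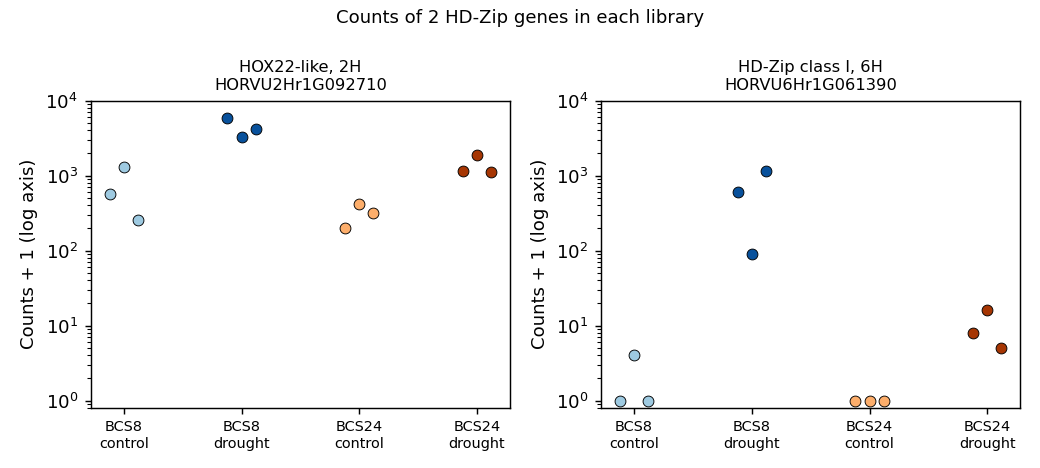
Counts plus 1 (y axis, log scale) of the HOX22-like gene on 2H and the HD-ZIP I gene on 6H in each of the 12 libraries, by group (x axis). The 6H gene was at 0 to 3 counts in all control libraries, at 88 to 1145 in BCS8 drought and at 4 to 15 in BCS24 drought.

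Lists by ontology term put the 3 genes beside genes with the same annotation. Among 273 other tested genes with the term response to abscisic acid, held by the HOX22-like and 7H NAC genes, 14 rose and 1 fell under drought in BCS8, which is 5.13% and 0.366%, beside 0.998% and 0.536% of all tested genes. In BCS24 9 rose and 8 fell, 3.30% and 2.93%, beside 1.4% and 1.25%. The median differences were 0.10 and 0.09, beside 0.02 and -0.00 over all tested genes. Among 644 other transcription factor genes 13 rose and 5 fell in BCS8, 2.02% and 0.776%, and 10 rose and 14 fell in BCS24, 1.55% and 2.17%, with medians of 0.06 and -0.04. Leaving out 1 library in turn, edgeR gave 0 to 13 rises of the abscisic acid list in BCS8, with 0 calls without BCS8 control 1 (42 at an unadjusted p under 0.05), 1 rise without BCS24 control 3, and 2 without BCS8 control 3 or BCS8 drought 1. In BCS24 it gave 0 to 14 rises and 0 to 11 falls, with 0 calls without BCS24 control 2 or 3 or BCS24 drought 1. The transcription factor list had 0 to 15 rises in BCS8 and 1 to 14 in BCS24. With the rRNA share added to the fit the abscisic acid list had 0 calls in either accession by edgeR (59 in BCS8 and 56 in BCS24 at an unadjusted p under 0.05). DESeq2 without that share called 27 rises and 10 falls of the 273 in BCS8, beside 721 and 461 of all 17342 tested genes.

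Among 75 other tested genes of the term leaf senescence 2 rose and 1 fell in BCS8, and 1 rose and 1 fell in BCS24, with medians of 0.08 and -0.03. The shares were 2.67% and 1.33% in BCS8, beside 0.998% and 0.536% of all tested genes. In BCS24 they were 1.33% and 1.33%, beside 1.4% and 1.25%. Each share rests on 1 or 2 genes, so nothing is read from them about the list. HORVU3Hr1G059170, annotated as a serine/threonine phosphatase and negative regulator of abscisic acid signalling, rose by 2.44 ± 0.41 in BCS8 (edgeR, adjusted p = 0.0262). HORVU2Hr1G017400, a transcription factor by ontology that also carries the term positive regulation of leaf senescence of the 4H NAC gene, rose by 1.12 ± 0.20 in BCS8 (adjusted p = 0.0276). In BCS24 HORVU5Hr1G077010, a transcription factor by ontology with the salt stress, abscisic acid, xylem development and senescence terms of the 7H NAC gene, fell by 2.24 ± 0.42 (edgeR, adjusted p = 0.0304). HORVU3Hr1G019510, annotated with jasmonic acid signalling, rose by 0.96 ± 0.20 (adjusted p = 0.0413). Both BCS8 calls were lost without BCS8 control 1 or 3, BCS8 drought 1 or BCS24 control 3, with adjusted p up to 0.139 and 0.136. The BCS24 calls were lost without 5 and 8 of the 12 libraries in turn, among them BCS8 control 1, BCS24 control 2 or 3, and BCS24 drought 1 or 2, with adjusted p up to 0.112 and 0.178. With the rRNA share added to the fit every one of these calls was lost (edgeR, adjusted p = 0.0864, 0.117, 0.137 and 0.244 in the order named). The list then had 0 calls in either accession, with 12 in each at an unadjusted p under 0.05. A fit to the 6 BCS8 libraries alone also lost both BCS8 calls (edgeR, adjusted p = 0.0737 and 0.134). The fit to the 6 BCS24 libraries alone lost HORVU5Hr1G077010 (edgeR, adjusted p = 0.0711) and kept HORVU3Hr1G019510 (0.0415). Without a filter on low counts HORVU3Hr1G019510 was lost (edgeR, adjusted p = 0.0575) and the others named still passed.

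Beside the 2 NAC genes, HORVU2Hr1G017400 was 1 of 2 transcription factor genes by ontology among the 86 that moved without overlap in opposite directions. It measured 9.36 to 14.04 FPKM in BCS8 control and 19.6 to 32.3 FPKM in BCS8 drought. In BCS24 it measured 13.96 to 16.4 FPKM in control and 8.27 to 10.98 FPKM in drought. Its BCS24 value, -0.62 ± 0.20, did not pass (edgeR, adjusted p = 0.117). The other such gene, HORVU3Hr1G039500, annotated with defence response to bacteria and named after its values were seen, had drought values of 0.16 and -0.22. HORVU6Hr1G061140, described as a GATA transcription factor but not one by ontology, was also among the 86 and named after its values were seen. Its drought values were 0.22 and -0.38. The term positive regulation of leaf senescence was added as a list after the data were seen. Of its 6 other tested genes only HORVU2Hr1G017400 passed in a drought contrast, as a rise in BCS8. That is 16.7%, beside 0.998% of all tested genes. With 1 call in a list added late, nothing is read from this share.

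Genes whose level moved most like each chosen gene were named by Pearson's r of log2 CPM over the 12 libraries, among 2649 described genes of at least 5 FPKM in a group. These libraries fall into 4 groups, so r largely follows the group levels and is given as a description. Over all tested genes, described or not, 54 had an r of 0.9 or above with the HOX22-like gene. Its nearest with a usable description was HORVU6Hr1G080670 (r = 0.956), a bZIP transcription factor described as a regulator of abscisic acid signalling and drought resistance, at mean levels of 15.0 and 30.4 FPKM in BCS8 control and drought and 9.18 and 22.7 FPKM in BCS24. The next was HORVU5Hr1G059280 (r = 0.940), a RING-type ubiquitin ligase, at 0.326 and 12.2 FPKM in BCS8 and 0.0133 and 1.38 FPKM in BCS24. The plasma membrane proton pump gene HORVU4Hr1G004820 (r = 0.907) and the protein kinase gene HORVU2Hr1G027080 (r = 0.888) followed. All 4 had their highest group mean in BCS8 drought.

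Counted over all tested genes in the same way, 6 reached an r of 0.9 with the 4H NAC gene and 2 with the 7H NAC gene. Nearest to the 4H gene were HORVU7Hr1G108890 (r = 0.923), a heavy metal ATPase, HORVU1Hr1G040930 (r = 0.912), a homolog of the vacuolar sorting protein VPS2, and HORVU4Hr1G064380 (r = 0.911), a purple acid phosphatase. HORVU2Hr1G012440 (r = 0.877), of the pyruvate dehydrogenase complex, came next. Nearest to the 7H gene were HORVU2Hr1G085160 (r = 0.881), inositol transporter 1, and 2 small subunit rRNA loci, ENSRNA049489482 (r = 0.865) and ENSRNA050016828 (r = 0.825). The cytosolic iron-sulfur assembly gene HORVU6Hr1G054280 (r = 0.824) came next. By the same measure the r between the 2 NAC genes was 0.795 over the 12 libraries, 0.747 over the 6 of BCS8 and 0.904 over the 6 of BCS24. Between the HOX22-like gene and the NAC genes r had opposite signs in the accessions: 0.895 in BCS8 and -0.781 in BCS24 for the 4H gene, and 0.630 and -0.605 for the 7H gene. These signs largely restate the drought differences, which chose the genes, and are not a further result.

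The deposited transcript table splits each gene into annotated isoforms, a property the choice of genes did not use. The HOX22-like gene has 2 transcripts, an unspliced one of 1 exon and 2794 bases and one of 2 exons and 2699 bases. Both begin ahead of the start listed for the gene. The 2-exon form held 82.1 to 97.3% of the gene's transcript FPKM in 11 libraries and 23.1% in BCS8 drought replicate 3, where the 1-exon form had 3209 of 4143 counts. That library did not stand apart in general: over 6455 genes with both 1-exon and spliced transcripts, its 1-exon share of counts was 14.2%, within the 12.2 to 14.6% of the 12 libraries.

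The 4H NAC gene has 4 transcripts, of which the 3-exon form was the main one, with group means of 62.4 to 75.2% of transcript FPKM. In BCS8 control replicate 3 it held 21.4%, and the 2-exon form of 1778 bases held 57.2%. The 7H NAC gene has 2 transcripts, and the 3-exon form, of 1564 bases, held 73.9 to 87.4% in all libraries. Its other form has 2 exons and 4004 bases and held the rest.

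Shares were compared between accessions by an exact permutation test within treatments, 2-sided, over 6 transcripts, in which the smallest possible p was 0.005. None passed, with adjusted p of 0.63 to 0.945. The largest difference was that of the 2-exon form of the HOX22-like gene, 12.2 percentage points higher in BCS24 (exact permutation p = 0.425), and it rested on BCS8 drought replicate 3, without which it was 0.984 points. The smallest p was that of the 3-exon form of the 7H NAC gene, 4.51 points lower in BCS24 (85.1 against 80.6%, exact permutation p = 0.105). How the reads shared by overlapping isoforms were divided is not given in the sources used here.

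**Figure D5:**
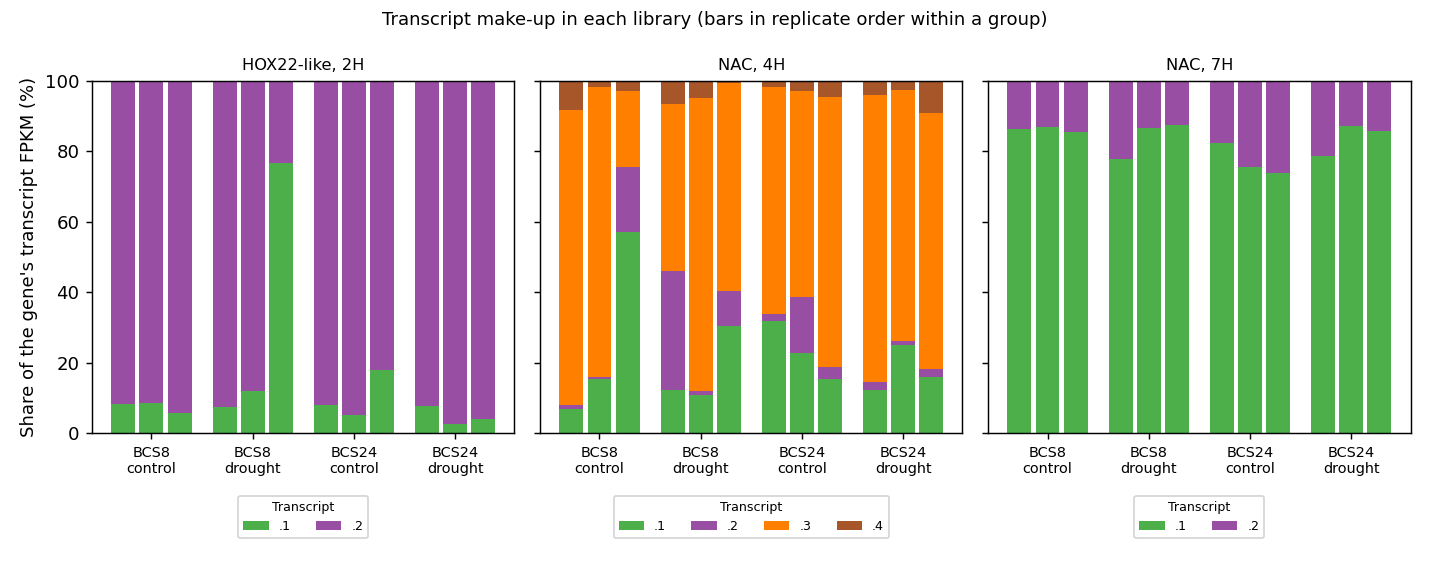
Share of each gene's transcript FPKM (y axis, percent) held by each annotated transcript in the 12 libraries (bars in replicate order within each group on the x axis). One bar of the HOX22-like gene, BCS8 drought replicate 3, has the 1-exon form (number 1) at 76.9%, and the 3-exon form of the 7H NAC gene (number 1) lies at 73.9 to 87.4% throughout.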

How the data were processed

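The authors deposited 1 table of genes and 1 of 143596 transcripts, and per the file headers each holds whole-number counts and FPKM for the 12 libraries. StringTie 2.1.6, DESeq2 and edgeR are named, per the submitters' processing notes, with no role. The sources used here do not give the aligner, the annotation release or the handling of reads shared by like genes. Counts of genes reaching 1 FPKM in 3 or more libraries were scaled by TMM and tested with the quasi-likelihood F test of edgeR 4.0.16 (R 4.3.3), in a single model of all groups with 8 residual degrees of freedom. Benjamini-Hochberg adjustment ran over 17342 genes, with a threshold of 0.05. SE is the log2 difference over the square root of F. CPM uses the same scaling. Libraries held 49553836 to 61212440 counts. The script was tested on simulated data.

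The 3 genes and all lists were chosen with earlier results of these data known. Beside the 3 genes, the text names every other tested gene of the lists by description, the 2 leaf senescence genes of lowest p among those past the threshold in each drought contrast, and the 4 genes most like each chosen gene. Others are said to be named after their values were seen. Alternatives were DESeq2 1.42.0, limma 3.58.1 on log2(FPKM + 1) and log2(FPKM + 0.1), other scaling and filters, a replicate block, rRNA share as a covariate, fits to 1 accession and leaving out each library. No sequences of these genes were used here.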

Additional observations from a re-analysis of the deposited data

Results flagged for a closer look

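For both NAC genes every drought library lay above the controls in BCS8 and below them in BCS24. For HORVU4Hr1G051360 the BCS24 value minus the BCS8 value was -2.43 on the log2 scale, and for HORVU7Hr1G055080 it was -1.58. Neither difference was tested, because the drought contrasts chose these genes. HORVU2Hr1G017400 showed the same arrangement, with a difference of -1.74, and the test of that difference did not pass (edgeR, adjusted p = 0.126). In that test 0 of 17342 genes passed in edgeR, 2166 had an unadjusted p under 0.05, and DESeq2 and limma on log2(FPKM + 1) passed 629 and 14.

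The HD-ZIP I gene HORVU6Hr1G061390 lay outside the tested genes and held 1834 counts over the BCS8 drought libraries, against 3 over the BCS8 controls and 0 over the BCS24 controls.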

How the results depend on the processing

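The drought differences of the 3 genes kept their sign in every alternative run, with ranges of 2.28 to 3.41 and 1.62 to 2.87 (BCS8, BCS24) for the HOX22-like gene, 0.85 to 1.41 and -1.45 to -0.96 for the 4H NAC gene, and 0.24 to 0.58 and -1.36 to -0.86 for the 7H NAC gene. With the rRNA covariate the accession difference of the drought values turned from -0.58 to 0.59 for the HOX22-like gene and moved to -1.11 for the 7H gene, and limma on log2(FPKM + 1) moved that of the 4H gene to -1.81, its added constant shrinking changes of low genes. These alternatives for the difference, and those for the gene lists, their named genes and NAC 47, were chosen after seeing the data. The accession call of the 4H NAC gene was lost without a filter (-0.59, edgeR adjusted p = 0.0502), with limma on log2(FPKM + 1) (-0.43, 0.0501), with the replicate block (-0.58, 0.0692) and with the rRNA covariate (-0.57, 0.0592). Leaving out 1 library gave -0.71 to -0.47, and the call was lost without BCS8 control 1 or 2, BCS8 drought 1 or 3, BCS24 control 1 or 3, or any BCS24 drought library. Genes past the threshold numbered 266 in BCS8 and 460 in BCS24, against 1182 and 1803 with DESeq2, 151 and 241 without a filter, 438 and 766 with limma on log2(FPKM + 1), 156 and 305 with the replicate block, and 29 and 15 with the rRNA covariate. Limma on log2(FPKM + 0.1) gave 751 in BCS24, and the 6 BCS8 libraries alone gave 2 in BCS8. Leaving out 1 library gave 0 to 320 in BCS8 and 19 to 674 in BCS24. In BCS8 the count moved by over 1.5 times without BCS8 control 1 (0 in edgeR, with 1779 at an unadjusted p under 0.05) or 3 (33), BCS8 drought 1 (84), BCS24 control 2 (143) or 3 (54), or BCS24 drought 1 (113). In BCS24 it did so without BCS8 control 1 (192), BCS24 control 2 (27) or 3 (19), or BCS24 drought 1 (38) or 2 (67). The accession count of 7029 was 5492 to 8326 in all alternatives, and no transcript share passed in any. The labels state no pairing, and same-numbered libraries deviated together for all 3 numbers only between the drought groups of the 2 accessions (r = 0.143, 0.267 and 0.185). The replicate block changed no other call of the 3 genes. Promoter motifs were not run. At these depths the 6H HD-ZIP I gene was not detectable in the BCS24 controls.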
